A study of Mus musculus with 17 samples.

Results

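The genes described here are Trp63 and 9 genes of the contractile and adhesive equipment of mammary myoepithelial cells: Acta2, Myh11, Mylk, Oxtr, Cnn1, Tagln, Actg2, Cdh3 and Col17a1. They were chosen by name, as 10 of the 19938 genes that had a probe set with a single gene symbol on Affymetrix Mouse Gene 1.0 ST arrays, and each of the 10 had exactly 1 such probe set. All were followed over 17 arrays, each from its own sample: 12 were tumours of the mouse mammary gland and 5 were normal mammary tissue. All mice are labelled as of mixed strain. Deletion of Rb together with p53 defines 9 tumours, called Rb/p53. Cre recombinase, which cuts out DNA between its recognition sites, was made in 7 of these by a transgene driven by the MMTV promoter (MMTV-Cre), taken from a mouse retrovirus active in mammary epithelium. In the other 2 an adenovirus carried Cre with a CMV promoter (Ad-Cre). Among the MMTV-Cre tumours replicate 1 is labelled nulliparous, replicate 2 parous and replicates 3 to 7 transplant, and both Ad-Cre tumours are labelled transplant as well. The 3 p53 tumours carried MMTV-Cre and are labelled as deleted for p53 alone. The normal samples were taken from animals of the double-deletion model, whose Cre status is not stated in the labels used here. Each model thus deletes its genes in the cells that express or receive Cre, the deleted exons are not given, and whether transplants share a donor is not given either.

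Myoepithelial cells form the outer, basal layer of mammary ducts and alveoli. They contract when oxytocin from the pituitary binds the oxytocin receptor, which raises calcium, activates myosin light chain kinase and lets smooth muscle myosin pull on smooth muscle actin, so that milk is ejected. The transcription factor p63, the product of Trp63, is required to form and maintain this basal lineage. Smooth muscle actin and its partners are not private to these cells, since vascular smooth muscle, pericytes and activated fibroblasts make them too.

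The arrays differed in ways that touch the results below. On all probe sets, p53 replicate 2 correlated with the other arrays at r of 0.89 to 0.91, whereas all other pairs of arrays reached 0.93 to 0.99, so values that rest on it are also given without it. For p53 replicate 3 the labels disagree, since only its title gives the double-deletion model, and it was kept with the p53 tumours. Rb1 on the log2 scale lay at 9.29 to 9.92 in Rb/p53 tumours and at 9.93, 10.999 and 10.27 in p53 tumours, against 10.93 to 11.50 in normal tissue. The Rb/p53 range lay below all other arrays, narrowly so for p53 replicate 1, and Trp53 did not have a probe set of its own. Array medians over all probe sets were close, from 7.74 to 7.85, but the 25th percentiles of the arrays ran from 6.37 to 6.80. The highest was that of p53 replicate 2, and all other arrays lay at 6.498 or below. The low end of p53 replicate 2 was thus raised, and the part of this in its low values was not tested. All levels below are deposited log2 RMA values, so a difference of 1 is a doubling, and levels of different genes are not compared because probe sets differ in brightness. The table carries no detection calls, so a gene that sits near or below the array medians is not shown to be above background and its fold may be understated. These are whole tissues, and fewer cells of a type cannot be told apart from less RNA per cell.

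Promoter sequences were available for 5 of the 10 genes (Acta2, Mylk, Cnn1, Oxtr and Col17a1), as RefSeq windows on build GRCm38.p6 from 250 bases before to 50 bases after the annotated start. The 3 contractile ones are shown because these genes, all known targets of serum response factor in smooth muscle, did not move alike in the tumours. Capitals mark matches to the CArG-like motif (CC, then 6 bases of which at least 5 are A or T, then GG), which serum response factor binds, and to MCAT (CATTCC or GGAATG), which TEAD factors bind, on either strand. The windows are Acta2 at chr19:34255324-34255623 on the minus strand, Mylk at chr16:34784700-34784999 on the plus strand and Cnn1 at chr9:22099003-22099302 on the plus strand, each written 5′ to 3′ along its gene.
Acta2: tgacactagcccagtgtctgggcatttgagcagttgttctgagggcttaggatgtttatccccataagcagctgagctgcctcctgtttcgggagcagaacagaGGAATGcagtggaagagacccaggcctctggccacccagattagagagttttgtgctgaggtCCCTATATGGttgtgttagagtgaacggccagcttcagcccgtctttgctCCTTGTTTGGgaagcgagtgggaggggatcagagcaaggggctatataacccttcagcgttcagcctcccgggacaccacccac
Mylk: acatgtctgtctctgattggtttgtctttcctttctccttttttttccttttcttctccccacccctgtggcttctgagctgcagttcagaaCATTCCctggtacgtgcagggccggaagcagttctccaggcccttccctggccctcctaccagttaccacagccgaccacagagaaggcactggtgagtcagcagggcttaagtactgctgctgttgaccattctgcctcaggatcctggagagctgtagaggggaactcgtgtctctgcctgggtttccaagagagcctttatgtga
Cnn1: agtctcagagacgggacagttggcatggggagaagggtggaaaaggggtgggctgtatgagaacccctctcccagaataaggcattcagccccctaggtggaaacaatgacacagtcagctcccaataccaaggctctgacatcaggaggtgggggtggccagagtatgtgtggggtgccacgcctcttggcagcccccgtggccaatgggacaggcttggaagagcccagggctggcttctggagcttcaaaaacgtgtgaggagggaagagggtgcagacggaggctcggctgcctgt
The Acta2 window held 2 CArG-like matches, which begin 84 and 34 bases upstream of the annotated start, and 1 MCAT match that begins 146 bases upstream. Distances count from the annotated start, which was not checked against where transcription begins. The Mylk window held 1 MCAT match that begins 158 bases upstream, and the Cnn1, Oxtr and Col17a1 windows held neither motif. Only 1 window per gene was searched, so sites in introns, further away or at other starts of a gene are not covered. Any link between these matches and the levels in tumours was not tested. Among 32841 promoter windows of the same length 9.98% had at least 1 CArG-like match, 0.822% had at least 2 and 14.7% had an MCAT match. No motif overlapped another in these windows, and a match is a description of letters and not a shown binding site.

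Trp63 and most of the contractile and adhesive genes were lower in tumours of both genotypes than in normal tissue, but not all of them, and not by the same amount. Myh11 was lower by a fold of 6.69 in Rb/p53 and 6.05 in p53 tumours and Oxtr by 6.02 and 5.63, Trp63, Mylk, Cdh3 and Col17a1 were lower by smaller amounts, and Acta2, Tagln and Actg2 ranged in single tumours from far below normal tissue to within or above its range. In Rb/p53 tumours 7 of the 10 genes were called lower and 0 higher against normal tissue in limma at a Benjamini-Hochberg adjusted p below 0.05 over all 19938 genes, where 13.4% of all genes were called lower and 14.2% higher. Their median log2 difference was -1.18, beside 0.03 for all genes tested. In p53 tumours 6 of the 10 were called lower and 0 higher, where 12.1% of all genes were called lower and 8.34% higher, and the median was -1.43 beside 0.09 for all genes. Both comparisons use the same 5 normal arrays, so their values stand side by side and are not counted as separate evidence.

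**Figure D1:**
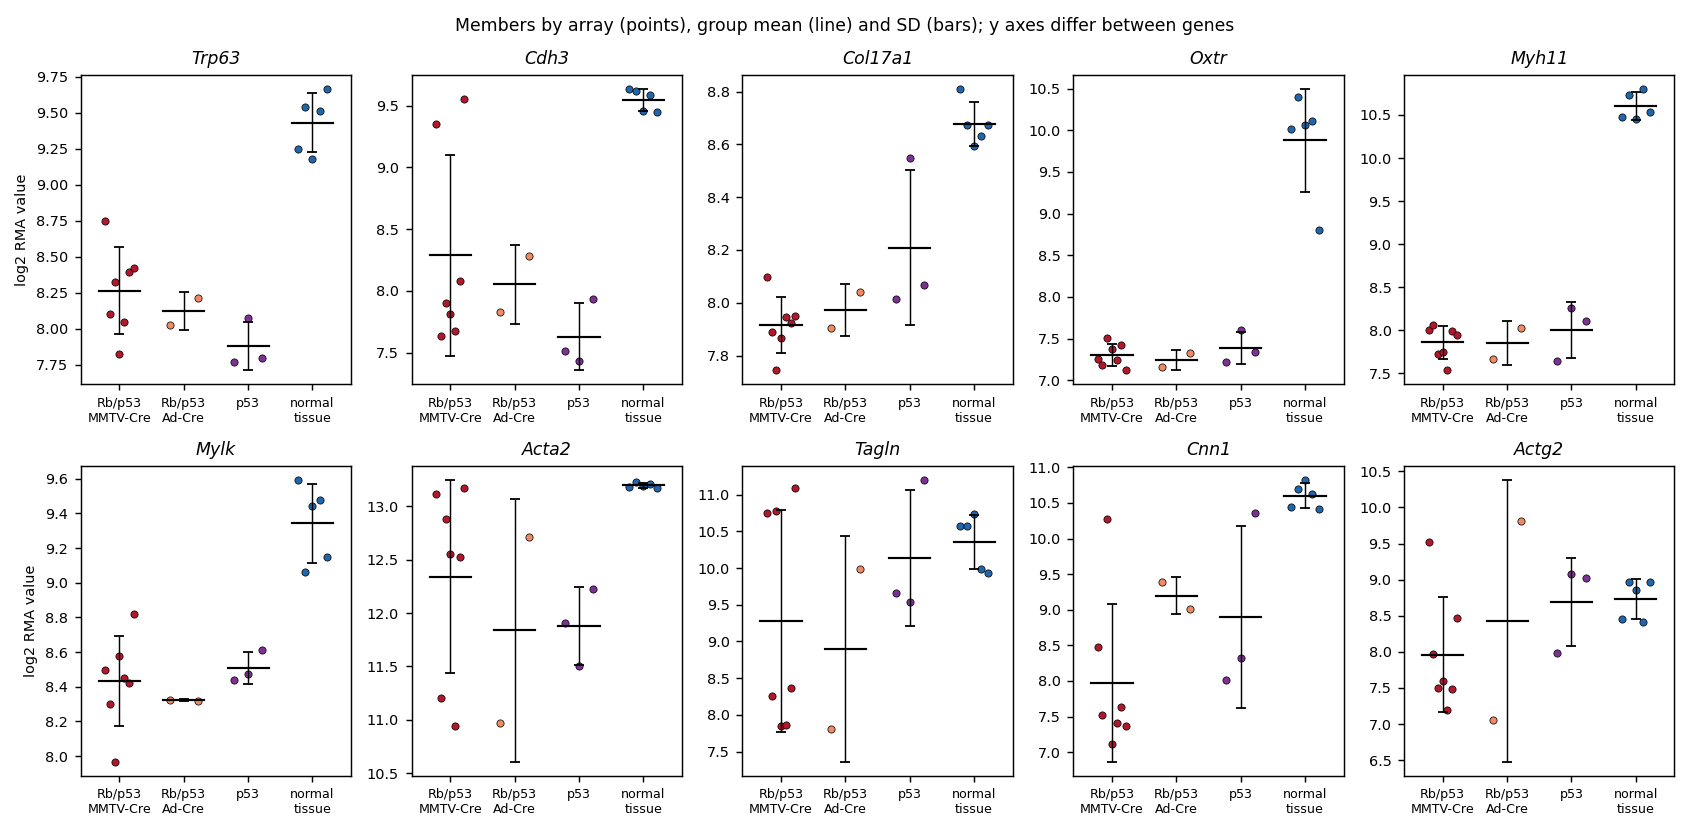
Log2 RMA value of each of the 10 genes on every array (points), with group mean (line) and SD (bar), for Rb/p53 MMTV-Cre (n = 7), Rb/p53 Ad-Cre (n = 2), p53 (n = 3) and normal tissue (n = 5); the y axis differs between genes. All 12 tumours sit below the lowest normal sample for Trp63, Col17a1, Oxtr, Myh11, Mylk and Cnn1, as they do for 6.29% of all genes, whereas 5 tumours reach the normal range for Tagln and 5 for Actg2.

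Trp63, the basal lineage regulator, had log2 values of 7.83 at the lowest, 8.22 at the median and 8.75 at the highest in the 9 Rb/p53 tumours and of 7.77, 8.07 and 7.80 in the 3 p53 tumours, against 9.25, 9.54, 9.18, 9.51 and 9.67 in normal tissue. No tumour reached the lowest normal value, and the tumour closest to it was the nulliparous MMTV-Cre replicate 1. The log2 difference from normal tissue was -1.20 ± 0.13 (SE) in Rb/p53 tumours (limma adjusted p = 3.32e-06), a fold of 2.29 lower. In p53 tumours it was -1.55 ± 0.17 (limma adjusted p = 7.44e-06), a fold of 2.93 lower. The probe set sums the transcripts of the gene, so the isoforms with and without the transactivation domain are not separated.

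Cdh3 encodes P-cadherin, the classical cadherin of myoepithelial cell contacts. Its log2 values were 7.63 at the lowest, 7.904 at the median and 9.55 at the highest in Rb/p53 tumours and 7.52, 7.43 and 7.94 in p53 tumours, against 9.63, 9.62, 9.46, 9.59 and 9.45 in normal tissue. Among the Rb/p53 tumours 2 stood apart from the rest: MMTV-Cre replicate 7 at 9.55 lay within the normal range and replicate 1 at 9.36 just under it, while the other 7 lay at 8.28 or below. Cdh3 was lower by a log2 difference of -1.31 ± 0.29 (SE) in Rb/p53 tumours (limma adjusted p = 0.00249) and of -1.92 ± 0.38 in p53 tumours (limma adjusted p = 0.00158). When MMTV-Cre replicates 1 and 2, which are no transplants, stood alone for Rb/p53, the difference was -1.06 (limma adjusted p = 0.0972).

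Col17a1 encodes collagen XVII, a transmembrane collagen of the hemidesmosomes that tie basal cells to their basement membrane. It lay at 7.74, 7.92 and 8.10 (lowest, median and highest) in Rb/p53 tumours and at 8.01, 8.55 and 8.07 in p53 tumours, against 8.81, 8.67, 8.59, 8.63 and 8.67 in normal tissue. The log2 differences were -0.75 ± 0.09 (SE) for Rb/p53 tumours (limma adjusted p = 5.74e-06) and -0.47 ± 0.11 for p53 tumours (limma adjusted p = 0.00759). The highest tumour value was that of p53 replicate 2, the array that stood apart, and without it the p53 difference was -0.64 (limma adjusted p = 0.00017). With a further quantile normalisation the p53 difference was -0.27 (limma adjusted p = 0.199), and with only the p53 and normal arrays in the fit its adjusted p was 0.0621.

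Oxtr, the receptor through which oxytocin triggers contraction, showed one of the 2 largest differences of the 10 genes in both genotypes. It had log2 values of 7.13, 7.25 and 7.51 (lowest, median and highest) in Rb/p53 tumours and of 7.22, 7.60 and 7.34 in p53 tumours, against 10.02, 10.40, 10.07, 10.11 and 8.80 in normal tissue. All 12 tumours lay below the lowest array median over all probe sets, so its level there was not shown to exceed background. The difference was -2.59 ± 0.19 (SE) in Rb/p53 tumours (limma adjusted p = 1.95e-08) and -2.49 ± 0.24 in p53 tumours (limma adjusted p = 1.8e-06). Normal replicate 5 was far below the other normal samples, and without it the Rb/p53 difference was -2.86.

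Myh11 encodes the smooth muscle myosin heavy chain, the motor of the contractile apparatus. Its values were 7.54, 7.95 and 8.06 (lowest, median and highest) in Rb/p53 tumours and 7.64, 8.26 and 8.11 in p53 tumours, against 10.48, 10.74, 10.45, 10.81 and 10.53 in normal tissue. The lowest normal sample lay far above the highest tumour, p53 replicate 2. Myh11 was lower by a log2 difference of -2.74 ± 0.12 (SE), a fold of 6.69, in Rb/p53 tumours (limma adjusted p = 1.67e-11) and of -2.60 ± 0.15, a fold of 6.05, in p53 tumours (limma adjusted p = 2.51e-09). Leaving out any 1 array kept the Rb/p53 difference between -2.78 and -2.69.

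Mylk, which encodes the kinase that phosphorylates the myosin light chain, was lower in both genotypes by less than Myh11. It lay at 7.97, 8.42 and 8.82 (lowest, median and highest) in Rb/p53 tumours and at 8.44, 8.47 and 8.61 in p53 tumours, against 9.59, 9.06, 9.44, 9.48 and 9.15 in normal tissue. The highest tumour, MMTV-Cre replicate 7, remained below the lowest normal sample. The differences were -0.94 ± 0.12 (SE) in Rb/p53 tumours (limma adjusted p = 1.79e-05) and -0.84 ± 0.16 in p53 tumours (limma adjusted p = 0.00113).

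Acta2 encodes smooth muscle actin, the actin most used to mark myoepithelial cells. It had log2 values of 10.94, 12.55 and 13.17 (lowest, median and highest) in Rb/p53 tumours and of 11.91, 11.50 and 12.23 in p53 tumours, against 13.18, 13.23, 13.19, 13.20 and 13.17 in normal tissue. The 9 Rb/p53 tumours split into 3 with values of 11.21 or below (MMTV-Cre replicates 2 and 5 and Ad-Cre replicate 1) and 6 at 12.53 or above, and MMTV-Cre replicates 7 and 1, at 13.17 and 13.11, came closest to normal tissue. The SD was 0.92 in Rb/p53 tumours and 0.36 in p53 tumours, against 0.02 in normal tissue. The difference was -0.96 ± 0.37 (SE) in Rb/p53 tumours and missed the threshold (limma adjusted p = 0.0599), although leaving out 1 array at a time brought it under the threshold in 3 of 14 fits, those without MMTV-Cre replicate 1, 3 or 7 (adjusted p = 0.0381, 0.0485 and 0.0346). It was also under it with array weights (adjusted p = 0.0363), the 25th percentile filter (0.0495) and cyclic loess (0.0286), all in limma. In p53 tumours, whose 3 values lay below all normal values, it was -1.31 ± 0.48 and also missed it (limma adjusted p = 0.0617), while with only the p53 and normal arrays in the fit, where the wide spread of the Rb/p53 tumours does not enter, the adjusted p was 0.00064, and with p53 replicate 3 moved to Rb/p53 it was 0.0498. The table does not mark saturated probes, and the small spread of Acta2 in normal tissue, high on a scale that ended at 14.31 to 14.47 there, leaves its differences open to compression.

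Tagln encodes transgelin, an actin-binding protein of smooth muscle and an early marker of its programme. Its values were 7.81, 8.36 and 11.09 (lowest, median and highest) in Rb/p53 tumours and 9.67, 9.54 and 11.20 in p53 tumours, against 10.57, 10.57, 10.73, 9.99 and 9.94 in normal tissue. Here 4 of the 12 tumours exceeded the highest normal sample: MMTV-Cre replicates 1, 3 and 7 at 10.75, 10.78 and 11.09, and p53 replicate 3 at 11.20. A further 1, Ad-Cre replicate 2 at 9.98, lay in the normal range, while 5 Rb/p53 tumours lay at 8.36 or below. With an SD of 1.42 in Rb/p53 tumours against 0.37 in normal tissue, the difference of -1.16 ± 0.59 (SE) did not pass (limma adjusted p = 0.163), and that of p53 tumours was -0.22 ± 0.77 (limma adjusted p = 0.854).

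Cnn1 encodes calponin, which damps the myosin motor on actin and marks fully differentiated contractile cells. It lay at 7.11, 7.64 and 10.28 (lowest, median and highest) in Rb/p53 tumours and at 8.02, 8.33 and 10.36 in p53 tumours, against 10.44, 10.70, 10.82, 10.63 and 10.41 in normal tissue. MMTV-Cre replicate 3 at 10.28 and p53 replicate 3 at 10.36 came closest to normal tissue, and the other tumours lay at 9.39 or below. The difference was -2.36 ± 0.50 (SE), a fold of 5.12, in Rb/p53 tumours (limma adjusted p = 0.00185). In p53 tumours it was -1.70 ± 0.65 and missed the threshold (limma adjusted p = 0.0732), and without p53 replicate 3 it was -2.43 (limma adjusted p = 0.0152). With only the p53 and normal arrays in the fit the adjusted p was 0.0368, and with replicate 3 moved to Rb/p53 it was 0.0273, both in limma.

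Actg2 encodes enteric smooth muscle actin. Its values were 7.05, 7.60 and 9.81 (lowest, median and highest) in Rb/p53 tumours and 7.99, 9.07 and 9.02 in p53 tumours, against 8.46, 8.97, 8.86, 8.41 and 8.96 in normal tissue. The tumours above all normal samples were Ad-Cre replicate 2 at 9.81, MMTV-Cre replicate 1 at 9.52 and p53 replicates 2 and 3, and MMTV-Cre replicate 7 lay inside the normal range. Neither difference passed, at -0.67 ± 0.41 (SE) in Rb/p53 tumours (limma adjusted p = 0.27) and -0.04 ± 0.54 in p53 tumours (limma adjusted p = 0.966), and the sign turned in p53 tumours under a further quantile normalisation (0.14) and under cyclic loess (0.04). The actins are near-identical paralogs, so part of the signal of the Actg2 and Acta2 probe sets could come from each other or from skeletal muscle actin. Acta1, skeletal muscle actin, lay at 11.45, 11.57, 9.02, 8.43 and 9.85 in the normal samples, where Acta2 lay between 13.17 and 13.23 and Actg2 between 8.41 and 8.97. How much signal these probe sets share was not tested, and Acta2 in normal tissue is open to compression.

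**Figure D2:**
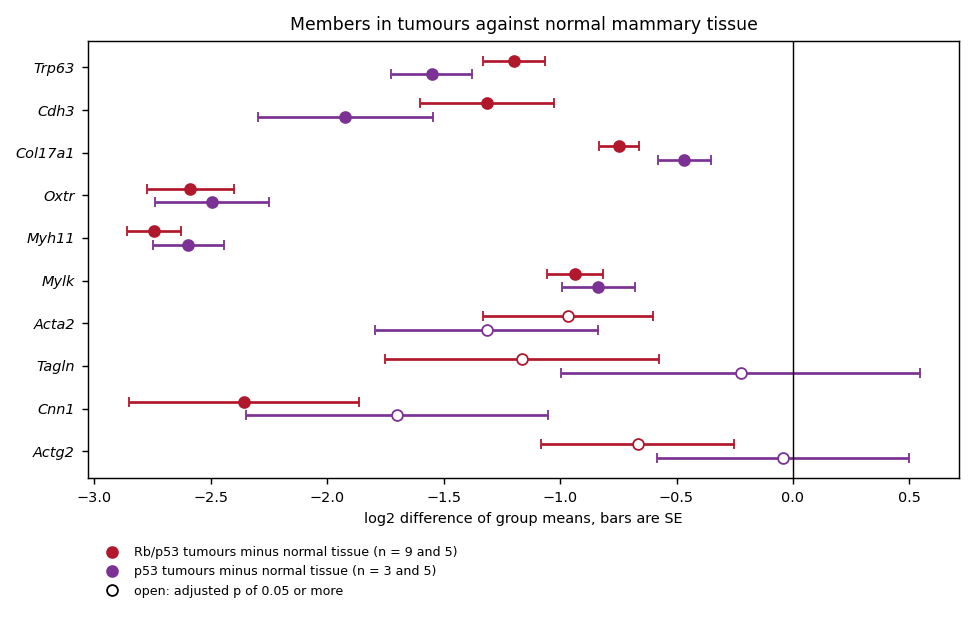
Log2 difference of group means with its SE (bars) for each of the 10 genes, Rb/p53 tumours minus normal tissue in red (n = 9 and 5) and p53 tumours minus normal tissue in purple (n = 3 and 5); filled points had a limma adjusted p below 0.05. Myh11 and Oxtr lie between -2.74 and -2.49 in both genotypes, and the open points are those of Acta2, Tagln and Actg2 in both and of Cnn1 in p53 tumours.

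The spread between tumours differed among the 10 genes, which was not tested. Among the 9 Rb/p53 tumours the SD of the log2 value was 1.42 for Tagln, 1.10 for Cnn1, 1.00 for Actg2, 0.92 for Acta2 and 0.72 for Cdh3. It was 0.27 for Trp63, 0.23 for Mylk, 0.19 for Myh11, 0.13 for Oxtr and 0.10 for Col17a1. Oxtr lay below the array medians in all tumours, where a small SD can be that of background. The same limit holds for Myh11 (7.54 to 8.06) and Col17a1 (7.74 to 8.10), which lay near the medians in Rb/p53 tumours. The lowest Trp63 value, 7.83, was also near them. The lowest values of Cnn1, Actg2 and Cdh3, at 7.11, 7.05 and 7.63, lay below the medians. Of the 5 genes with the widest spread, 4 shared tumours at the high end. MMTV-Cre replicates 1 and 7 were among the 3 highest of the 9 for Acta2, Tagln, Actg2 and Cdh3, and replicate 1 also had the highest Trp63. The 3 tumours with low Acta2 (MMTV-Cre replicates 2 and 5 and Ad-Cre replicate 1) had Tagln at 8.26, 7.86 and 7.81, but MMTV-Cre replicate 4 combined Acta2 at 12.55 with Tagln at 7.86. Since values of Acta2, Tagln and Cdh3 fell into separate clusters of tumours, no correlation coefficient over the Rb/p53 tumours is given. Exact permutation tests over the 45 pairs of the 10 genes in these 9 tumours gave 9 at an unadjusted Pearson p below 0.05 and 0 after adjustment, by Pearson or Spearman correlation.

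Cnn1 and Tagln did not pick out the same tumours. MMTV-Cre replicate 7 had the highest Tagln of the Rb/p53 tumours at 11.09 and one of the lowest Cnn1 values at 7.37. Ad-Cre replicate 1 had the lowest Tagln at 7.81 and the second highest Cnn1 of that genotype at 9.39. Replicate 3 of the MMTV-Cre tumours and replicate 3 of the p53 tumours were high for both.

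**Figure D3:**
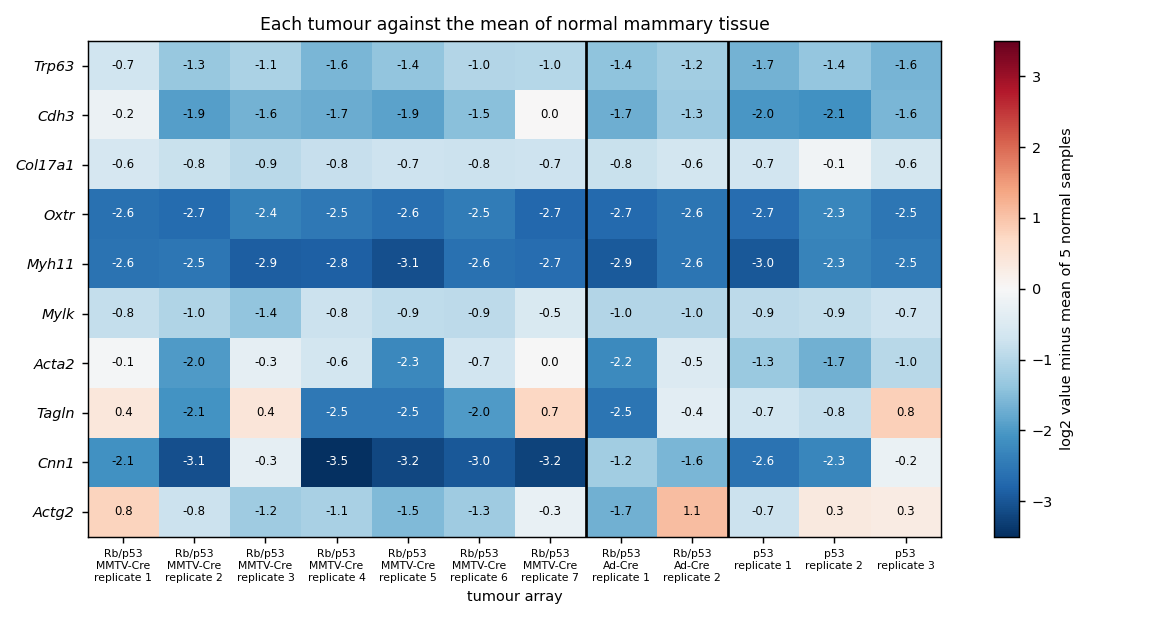
Log2 value of each of the 10 genes (rows) in each of the 12 tumours (columns) minus the mean of the 5 normal samples; blue is below and red above that mean, and the printed number is the difference. Oxtr and Myh11 are uniformly blue, while Tagln, Acta2, Cnn1 and Actg2 vary from tumour to tumour.

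Whether the motor and the actin changed unequally was tested within each array, where scaling of a whole array cancels. Compression at a single probe set does not cancel: Myh11 lay near the array medians in tumours and Acta2 high on the scale in normal tissue, and the part of this in the sizes below was not tested. The pair was picked with earlier results of these data known. Its p-values thus describe how these arrays separate and are no independent support. The log2 value of Myh11 minus that of Acta2 averaged -4.37 ± 0.85 in Rb/p53 tumours (SD, n = 9), against -2.59 ± 0.14 in normal tissue (SD, n = 5). Every one of the 9 tumours, from -5.23 to -3.15, lay below every normal sample, from -2.74 to -2.40. The difference of -1.78 had an exact two-sided permutation p = 0.000999, the smallest this test can give for these group sizes, and an adjusted p = 0.004 over the 4 within-array tests. In p53 tumours the mean was -3.88 ± 0.55 (SD, n = 3), a difference of -1.28 from normal tissue (exact permutation p = 0.0357, the smallest for 3 against 5 arrays, adjusted p = 0.0476).

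The smooth muscle actins were set against each other in the same way. Actg2 minus Acta2 averaged -4.16 ± 0.88 in Rb/p53 tumours (SD, n = 9), against -4.46 ± 0.27 in normal tissue (SD, n = 5), and the difference of 0.30 lay within the spread (exact two-sided permutation p = 0.479). In p53 tumours it averaged -3.19 ± 0.75 (SD, n = 3), which was 1.27 higher than in normal tissue with all 3 tumours above all normal samples (exact two-sided permutation p = 0.0357, adjusted p = 0.0476). Without p53 replicate 2 that difference was 0.89, and with any 1 array left out neither p53 test can pass the threshold for the number of arrays left. Such a difference shows unequal change of the 2 probe sets and not that either stayed the same.

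Rb/p53 tumours were compared with p53 tumours on the 12 tumour arrays to ask whether these genes differ in level between the 2 tumour groups. Genotype is not all that separates the groups. Most Rb/p53 tumours had been transplanted, and some of those received Cre from adenovirus, whereas the p53 tumours carry no transplant label and all had MMTV-Cre. The part of Rb loss alone was thus not tested. None of the 10 genes was called (0 of 10 by limma, 1 of 10 at an unadjusted p below 0.05). Of all genes 0.00502%, 1 of 19938, was called and 20.6% had an unadjusted p below 0.05. Trp63 was 0.35 ± 0.17 (SE) higher in Rb/p53 tumours (95% interval -0.01 to 0.71, limma adjusted p = 0.244), with overlapping groups at 7.83 to 8.75 in Rb/p53 tumours against 7.77 to 8.07 in p53 tumours. The 1 gene at an unadjusted p below 0.05 was Col17a1, at -0.28 ± 0.12 (95% interval -0.53 to -0.03, limma adjusted p = 0.215), and without p53 replicate 2 its difference was -0.11. For the genes with wide spread the intervals were broad, from -2.67 to 0.79 for Tagln, -2.13 to 0.82 for Cnn1, -1.84 to 0.59 for Actg2, -0.74 to 1.44 for Acta2 and -0.25 to 1.47 for Cdh3. For Myh11, Mylk and Oxtr they were narrower, from -0.47 to 0.18, -0.41 to 0.21 and -0.33 to 0.14. Oxtr lay below the array medians in both tumour groups and Myh11 near them, so a narrow interval there does not exclude a difference between the tumour groups. Trp63 in p53 tumours and Col17a1 in Rb/p53 tumours also lay near the medians, which limits their intervals in the same way. Over all genes the calls depended on p53 replicate 3, without which 847 genes were called higher and 511 lower, while the count among the 10 genes stayed at 0.

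Ad-Cre and MMTV-Cre Rb/p53 tumours, which differ in how Cre reached the cells, were compared as 2 against 7 arrays. None of the 10 genes was called (0 of 10 by limma, and 0 of 10 at an unadjusted p below 0.05), where 0.00502% of all genes were called. Cnn1 showed the largest difference, with 9.39 and 9.01 in the Ad-Cre tumours against 7.11, 7.52 and 10.28 (lowest, median and highest) in MMTV-Cre tumours. It was 1.23 ± 0.77 (SE) higher in Ad-Cre tumours (95% interval -0.47 to 2.92, limma adjusted p = 1.00), and MMTV-Cre replicate 3 lay above both. The 2 Ad-Cre tumours lay far apart in Acta2 (10.97 and 12.71), Tagln (7.81 and 9.98) and Actg2 (7.05 and 9.81), and the 95% intervals of these genes ran from -1.85 to 0.85, -2.56 to 1.80 and -1.04 to 1.98. Both Ad-Cre tumours were transplants.

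Transplanted MMTV-Cre tumours were compared with the 2 others, as 5 against 2 arrays. None of the 10 genes was called (0 of 10 by limma, and 0 of 10 at an unadjusted p below 0.05), where 0.0251% of all genes were called. Actg2 came nearest, with 7.496, 7.60, 7.20, 7.48 and 8.47 in transplants against 9.52 and 7.97 in the others, a difference of -1.10 ± 0.47 (SE) with a 95% interval of -2.20 to 0.00 (limma adjusted p = 0.628). Without replicate 1 it was -0.32. Groups did not overlap for 1 of the 10 genes, where 14.3% of all genes did not overlap. This was Myh11, at 7.73, 7.75, 7.54, 7.996 and 7.95 in transplants against 8.01 and 8.06 in the others, a difference of -0.24 ± 0.14 (limma adjusted p = 0.668).

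Other genes of the same processes were counted from lists. Each count below is to be read against all genes tested, of which 13.4% were lower and 14.2% higher in Rb/p53 tumours, and 12.1% lower and 8.34% higher in p53 tumours. Of 25 measured genes of the smooth muscle contractile apparatus 9 were lower and 5 higher in the Rb/p53 group, with a median log2 difference of -0.09 beside 0.03 for all genes. The lower ones with the largest changes were Aoc3, an amine oxidase of smooth muscle that is also abundant in fat cells, at -4.19 ± 0.19 (SE), Kcnmb1, a subunit of the calcium-activated potassium channel, at -2.04 ± 0.20, and Des, the intermediate filament desmin, at -1.72 ± 0.20. The higher ones were led by Actn1, which crosslinks actin, at 1.40 ± 0.31, Cnn2, a calponin that is not restricted to smooth muscle, at 0.94 ± 0.22, and Pdlim7 at 0.86 ± 0.22. In p53 tumours 8 were lower, led by Aoc3 at -3.83 ± 0.25, and 2 higher, the filamin Flna at 0.81 ± 0.18 and Tagln2 at 0.61 ± 0.19, with a median of -0.34. The number higher in p53 tumours rested on single arrays: it was 8 without p53 replicate 2, and 1 without p53 replicate 3, p53 replicate 1 or any 1 of normal replicates 1 to 4.

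Myl9, the smooth muscle regulatory light chain that Mylk phosphorylates, is given because its tumour values, once seen, resembled those of Tagln. In Rb/p53 tumours it was 7.895 at the lowest, 9.29 at the median and 11.62 at the highest, with MMTV-Cre replicates 1, 3 and 7 at 11.50, 11.32 and 11.62, and in p53 tumours it was 9.81, 9.03 and 10.51, against 11.41, 11.43, 11.59, 11.67 and 11.54 in normal tissue. These 3 Rb/p53 tumours are the same that exceeded normal tissue for Tagln. Its log2 difference was -1.70 ± 0.60 (SE) in Rb/p53 tumours (limma adjusted p = 0.0433) and -1.75 ± 0.78 in p53 tumours, which did not pass (limma adjusted p = 0.122).

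Of 12 measured regulators around serum response factor and the myocardin family, 4 were higher and 1 was lower in Rb/p53 tumours (14.2% and 13.4% of all genes), with a median of 0.12. Fhl2, a cofactor of these regulators, rose by 2.36 ± 0.27 (SE), with values of 10.19 to 11.09 in Rb/p53 tumours and 8.36 to 10.66 in p53 tumours, against 8.21 to 8.49 in normal tissue. Tead1, a factor that binds MCAT, rose by 0.88 ± 0.31, Mrtfa, an actin-sensing coactivator of serum response factor, by 0.60 ± 0.11, and its relative Mrtfb fell by 0.42 ± 0.15 on the log2 scale. The number higher was 2 without MMTV-Cre replicate 4 or normal replicate 2, 3 or 4. The number lower was 0 without any 1 of MMTV-Cre replicates 1 to 6, Ad-Cre replicate 2 or normal replicates 1, 4 and 5, Mrtfb having an adjusted p = 0.0482 in limma with all arrays. In p53 tumours 2 were higher (Fhl2 at 1.45 ± 0.36 and Mrtfa at 0.63 ± 0.14) and 1 was lower (Mrtfb at -0.74 ± 0.20), the count lower being 0 without p53 replicate 1.

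Of 15 measured genes that act with the oxytocin receptor in contraction, 2 were higher and 2 lower in Rb/p53 tumours, near the shares of all genes (14.2% and 13.4%). Ednrb, an endothelin receptor, was at -1.36 ± 0.25 (SE) and Stim1, a calcium sensor, at -0.42 ± 0.13, while Prkca, a protein kinase C, was at 1.67 ± 0.33 and Orai1, a calcium channel, at 0.30 ± 0.10. In p53 tumours Ednrb (-1.86 ± 0.33) and Gna11 (-0.81 ± 0.26), a G protein subunit, were the 2 called lower, and Orai1 (0.58 ± 0.14) was among the 2 called higher. With 1 array left out the counts were 1 to 2 higher and 1 to 3 lower in Rb/p53 tumours, and 1 to 3 in each direction in p53 tumours.

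Among 20 measured basal keratins and genes linked to p63, 9 were lower and 2 higher in Rb/p53 tumours (13.4% and 14.2% of all genes), with a median of -0.52. Krt5, the basal keratin that p63 is known to activate, was lower by -3.77 ± 0.33 (SE), Krt17, another basal keratin, by -2.58 ± 0.21 and Bmp7, a signalling ligand, by -2.52 ± 0.19. Igfbp3, an insulin-like growth factor binding protein, was higher by 1.90 ± 0.27, as was the laminin-binding integrin subunit Itga3 by 1.27 ± 0.41, and the number higher was 1 without Ad-Cre replicate 2 or normal replicate 1, 2, 3 or 4. In p53 tumours 9 were lower and 0 higher, led by Krt5 (-2.93 ± 0.44), Fgfr2 (-2.50 ± 0.43), a fibroblast growth factor receptor, and Bmp7 (-2.39 ± 0.25), while the number higher was 2 without p53 replicate 2 and 1 without p53 replicate 1. The mean log2 value of the list lay at 7.92 to 8.40 in Rb/p53 tumours and 8.05 to 8.28 in p53 tumours, against 8.80 to 9.06 in normal tissue.

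Col17a1 and Cdh3 were set beside other adhesion genes. Of 13 measured genes of hemidesmosomes and basement membrane adhesion 4 were lower and 2 higher in Rb/p53 tumours (13.4% and 14.2% of all genes), with a median of -0.39, so the share higher was near that of all genes. The laminin chains Lama1 and Lama3 were lower by -1.77 ± 0.12 (SE) and -1.70 ± 0.10 and the laminin-binding integrin subunit Itga6 by -0.89 ± 0.32, whereas the linker plectin (Plec) was higher by 1.09 ± 0.22 and the integrin subunit Itgb1 by 0.77 ± 0.14. Without normal replicate 3 the number lower was 2. The p53 tumours had 3 lower and 2 higher, with Lama3 at -1.69 ± 0.13, Lama1 at -1.50 ± 0.16 and Plec at 1.18 ± 0.29, and without p53 replicate 1 these counts were 6 and 1. Among 7 cadherins and catenins 3 were lower and 1 higher in Rb/p53 tumours, and 2 lower and 1 higher in p53 tumours, counts too small to set apart from the shares of all genes. Cdh1, the E-cadherin of luminal cells, was lower by -2.35 ± 0.39 in Rb/p53 tumours and -2.27 ± 0.51 in p53 tumours, and the junction protein Jup by -1.21 ± 0.31 in Rb/p53 tumours and -1.68 ± 0.40 in p53 tumours. Ctnnd1, which encodes p120 catenin, was lower by -0.31 ± 0.09 in Rb/p53 tumours. Ctnna1, an alpha catenin, was higher by 0.37 ± 0.12 in Rb/p53 tumours and 0.51 ± 0.16 in p53 tumours. The number higher was 0 without normal replicate 1, 3 or 4 in both comparisons, without normal replicate 5 in Rb/p53 tumours and without p53 replicate 1 in p53 tumours, and it was 2 without MMTV-Cre replicate 2 in Rb/p53 tumours and without p53 replicate 2 in p53 tumours.

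**Figure D4:**
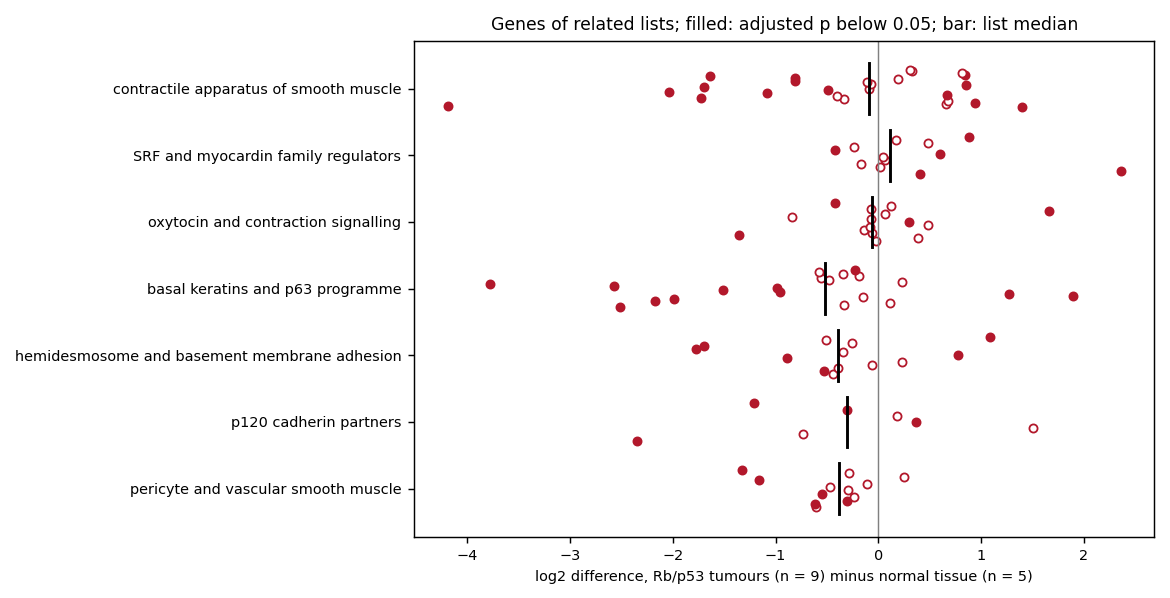
Log2 difference of Rb/p53 tumours (n = 9) minus normal tissue (n = 5) for each gene of 6 lists around the 10 genes and of the pericyte and vascular smooth muscle markers; filled points had a limma adjusted p below 0.05 and the black bar is the list median. Medians run from -0.52 for basal keratins and p63-linked genes to 0.12 for the serum response factor regulators, and single genes lie far on both sides.

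Markers of other cell types differed between the same groups, and their part in the results above was not tested. Pericyte and vascular smooth muscle markers, cells that also express Acta2, Tagln and Myh11, had list means of 8.39 to 9.04 in Rb/p53 tumours and 8.49 to 8.83 in p53 tumours, against 9.11 to 9.32 in normal tissue, and 5 of 12 were lower in Rb/p53 and 4 of 12 in p53 tumours. Without normal replicate 1 the Rb/p53 count was 3. Rgs5, a pericyte marker, had values of 8.80 to 10.10 in Rb/p53 tumours and 9.63 to 9.67 in p53 tumours, against 10.56 to 11.14 in normal tissue. Pdgfrb of the same list went the other way in Rb/p53 tumours, with a median of 11.70 (10.62 to 11.92). In normal tissue its median was 11.32 (10.93 to 11.60), and its p53 values were 9.94 to 11.15. In Rb/p53 tumours 11 of the 12 markers had a log2 difference below 0, 0 were called higher and 7 were not called. Fibroblast markers had list means of 9.97 to 11.22 in Rb/p53 tumours and 10.09 to 11.04 in p53 tumours, against 11.39 to 11.73 in normal tissue, with 5 of 12 lower in Rb/p53 tumours and 3 of 12 in p53 tumours.

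Luminal epithelial markers were lower for 13 of 16 in Rb/p53 tumours and 12 of 16 in p53 tumours, with list means of 8.12 to 9.65 in Rb/p53 tumours and 8.01 to 8.83 in p53 tumours, against 10.61 to 10.74 in normal tissue. Fat cell markers were lower for 11 of 11 in both genotypes, with list means of 7.77 to 8.89 in Rb/p53 tumours and 7.74 to 8.57 in p53 tumours, against 12.52 to 12.98 in normal tissue. Skeletal muscle markers had list means of 7.13 to 7.78 in Rb/p53 tumours and 7.29 to 7.42 in p53 tumours, against 7.71 to 10.06 in normal tissue. In Rb/p53 tumours 10 of 12 were lower, or 5 without normal replicate 1 or 2. In p53 tumours 3 of 12 were lower, or 1 to 8 with 1 array left out. Of endothelial markers 3 of 10 were lower in Rb/p53 and 5 of 10 in p53 tumours, the p53 count being 2 without p53 replicate 2 and 3 without normal replicate 1, 3 or 4. Macrophage markers were higher for 5 of 10 in Rb/p53 tumours and 9 of 10 in p53 tumours, or 5 in p53 tumours without p53 replicate 2. Every normal sample thus had higher luminal and fat list means than every tumour, and the values of the 10 genes are shares of such mixed RNA.

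The genes whose values ran most like those of Trp63 over all 17 arrays were Vtn (Pearson r = 0.95), Bcam (0.95), Dennd2d (0.94), Ecm2 (0.94) and Agtr1a (0.94). Over the 11 tumours without p53 replicate 2 the closest were B4galt4 (r = 0.90), Nosip (0.87), Anxa10 (0.87), Pcdhb14 (0.87) and Nhsl2 (0.86), so the 2 lists share no gene. For Acta2 the closest over 17 arrays were Zfp579 (r = 0.89), Ddr1, Tead3, Eif3f and Gatd1 (0.82 to 0.81), and over the 11 tumours they were Olfr926 and Tead3 (both 0.88), D17H6S53E, Daxx and Borcs6 (0.87 to 0.86). These are descriptions over arrays that share their processing, picked as the highest of 19938 genes. For Trp63 every normal sample lay above every tumour, so r over 17 arrays largely follows the gap between normal tissue and tumours. Values of Acta2 fell into clusters among the Rb/p53 tumours, which its r over the 11 tumours can reflect.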

How the data were processed

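Affymetrix Mouse Gene 1.0 ST arrays measured total RNA of 17 mammary samples of mice. The deposited log2 values were made by RMA in Partek 5.6, per the submitters' processing notes. RMA corrects background, normalises between arrays and sums probes into probe sets, and its further settings are not given. The table had 35556 probe sets, with 0 missing values and 0 unmapped array columns. In the platform annotation 21789 probe sets named a single gene, 1621 named several and 12146 named none. Through Entrez IDs 21698 of those naming a single gene were found in the mouse gene table, with 0 symbols changed. Per symbol the probe set with the highest mean was kept, which left 19938 genes. Arrays have no read depth, so their number sets the precision.

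Genes were tested with limma 3.58.1 in R 4.3.3 (lmFit and eBayes), adjusted by the Benjamini-Hochberg method over all 19938 genes, at a threshold of 0.05. Both comparisons with normal tissue came from 1 fit of 17 arrays as 3 groups, Rb/p53 against p53 from the 12 tumour arrays, Ad-Cre against MMTV-Cre from the same 12 as 3 groups, and transplants against others from the 7 MMTV-Cre Rb/p53 arrays. Within-array differences were tested by exact two-sided permutation in scipy 1.17.1 and adjusted over 4 tests. The fits were also run on simulated data in which each gene had the same spread in all groups. Such data do not cover genes like Acta2 and Cnn1, whose spread differed between groups. Intervals are 95% intervals of the limma fit.

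The 10 genes, the lists and the tests were chosen with earlier results of these data known. From each pathway list up to 3 called genes with the largest change in each direction are named, and 5 genes each are named for likeness to Trp63 and to Acta2, leaving out predicted genes. Rb1, Myl9, Acta1, Rgs5 and Pdgfrb are named outside this rule, all but Rb1 after their values were seen. The settings varied were eBayes (trended and robust), weighting of arrays, a filter on mean level at the 25th percentile, a second quantile step or cyclic loess, averaging of probe sets per symbol, the arrays in the fit, the group of p53 replicate 3, and single arrays left out. Leaving out p53 replicate 2 while moving replicate 3, which leaves 1 p53 array taken to vary like the other groups, was added after seeing the data, as were the repeats of the list counts. Promoter windows came from RefSeq (GRCm38.p6). A called gene of the pathway lists is counted with its list but not reported by itself here.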

Additional observations from a re-analysis of the deposited data

Results flagged for a closer look

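For each of the 10 genes the highest and lowest value was compared with its nearest neighbour by Dixon's test. This was done in the 5 normal arrays, the 7 MMTV-Cre Rb/p53 arrays and all 9 Rb/p53 arrays, which include those 7. Of these 30 tests, 2 singled out a value, and chance would do so in about 1 test in 20. Oxtr in normal tissue replicate 5 was 8.80, the lowest of the 5 normal samples, and the next lowest was 10.02. It still lay above all 12 tumours, which were at 7.13 to 7.60. Cnn1 in MMTV-Cre replicate 3 was 10.28, the highest of the 7 MMTV-Cre Rb/p53 tumours, and the next highest was 8.48. That gap was 0.5684 of the range, barely over the cut-off of 0.568, and among all 9 Rb/p53 tumours the value was not singled out. No cause was tested for either value.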

How the results depend on the processing

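In Rb/p53 tumours against normal tissue 6 to 8 of the 10 genes were lower over 26 alternatives (7 to 8 with 1 array left out), and in p53 tumours 5 to 8 over 17; 0 were called in the 3 comparisons between tumours under any alternative run. The cause of the changes below was not tested. With only the 2 Rb/p53 tumours that are no transplants, 674 genes were higher and 1331 lower than in normal tissue, and Actg2 was at 0.013. In p53 tumours against normal tissue the number of genes higher was 2536 with quantile normalisation again, 2883 with p53 replicate 3 moved to Rb/p53, 949 with only the arrays compared, and 1156 to 2723 with 1 array left out. Here Actg2 was at 0.14 with quantile normalisation, 0.036 with cyclic loess and -0.23 to 0.31 with 1 array left out, and Tagln at -0.76 to 0.074. Between Rb/p53 and p53 tumours the genes higher and lower were 1 and 2 with array weights, 1113 and 931 with replicate 3 moved, 1 and 0 with MMTV-Cre tumours only, 242 and 114 with all 17 arrays, 6 and 6 with p53 replicate 2 left out and replicate 3 moved, and 0 to 847 and 1 to 511 with 1 array left out. The genes higher were 1 with the 25th percentile filter, quantile normalisation and with cyclic loess, and those lower 0 with no transplants. Signs turned for Myh11 (0.027 with array weights, 0.029 with no transplants, 0.24 with replicate 2 out and 3 moved), Oxtr (0.017 with array weights, 0.075 with replicate 2 out and 3 moved, -0.18 to 0.012 with 1 array left out), Cnn1 (0.28 with replicate 3 moved, 0.44 with replicate 2 out as well, -1.10 to 0.073 with 1 array left out) and Actg2 (0.055 with no transplants, 0.18 with replicate 2 out and 3 moved). For Ad-Cre against MMTV-Cre tumours the genes higher were 4 with cyclic loess, 5 with all 17 arrays and 1 to 30 with 1 array left out. For transplants against others they were 2 with trended and robust eBayes, with the 25th percentile filter and with averaged probe sets, 0 with the 12 tumour arrays and 1 to 12 with 1 array left out, and 3 to 146 were lower. With replicate 3 moved the p53 within-array differences from normal tissue were -1.16 for Myh11 minus Acta2 and 1.29 for Actg2 minus Acta2, and with 1 array left out -1.60 to -1.09 and 0.89 to 1.64, all with too few arrays for the exact test to pass after adjustment.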
